A study of Mus musculus with 6 samples.

Results

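Plasmablasts are B-lineage cells that have begun to secrete antibody, and they pass through blood on their way from the tissue where they arose to mucosa, bone marrow or inflamed sites. They were taken here from single-cell transcriptomes of mouse peripheral blood mononuclear cells as barcodes with at least 5 unique molecular identifiers (UMIs, 1 per captured mRNA molecule) of Jchain, at least 3 UMIs of Mzb1 and Xbp1 together, no UMI of the T cell receptor genes Cd3d, Cd3e and Cd3g, and none of Siglech, a gene of plasmacytoid dendritic cells. A barcode was kept if it held 200 genes or more and no more than 20% of its UMIs were mitochondrial. By these measured values, 56 of 49025 kept barcodes were plasmablasts. Values of Jchain, Xbp1 and the excluded genes therefore describe the selection, and no difference in them is read as a result. The blood came from male mice of 12 to 13 weeks in 2 groups of 3 libraries each. Control mice (Con) were injected intraperitoneally with saline, and diabetic mice (T2D) with streptozotocin (STZ); the drug enters pancreatic beta cells and kills them. The series title describes the T2D model as high-fat diet with STZ, whereas the labels give no diet, dose or duration for either group. Whether mice were pooled for a library is not stated, and the p-values below therefore describe library-to-library spread, part of which may be technical.

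The antibody a plasmablast secretes is set by its heavy chain constant gene. IgA, encoded by Igha, serves mainly mucosal surfaces, where the joining chain Jchain links antibody units so that they can be carried across epithelium. IgG2c, encoded by Ighg2c, circulates in serum and is associated with type 1 and antiviral responses. To fold and export so much protein, the transcription factors Blimp-1 (Prdm1), IRF4 and XBP1 switch off the B cell programme and enlarge the endoplasmic reticulum.

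The libraries held 7404 to 9112 barcodes and 23574052 to 32321855 UMIs. Plasmablasts held more RNA than B cells, with a library median of 9097 to 14286 UMIs against 2649 to 2913 in B cells, which were defined by at least 3 UMIs of Cd79a, Cd79b and Ms4a1 together with the same Cd3 and Siglech gates and fewer than 5 Jchain UMIs (21221 cells). Libraries stand apart in free RNA: 6.26% to 10.6% of T cells in Con and 7.98%, 19.8% and 27.0% in T2D carried an Igha UMI, which T cells do not make. Between 63 and 86 barcodes were shared by any pair of libraries, and 1 plasmablast barcode also occurred in another library. A doublet caller marked 1556 kept barcodes (3.17%) and no plasmablast.

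Of the 4 markers that name these cells, Jchain, Xbp1 and Igha were high and Mzb1 was not. Jchain reached 6 to 970 UMIs per cell (median 287) and Xbp1 3 to 97 (median 16). Mzb1, a chaperone of antibody assembly named among the defining markers, was nearly absent from the data as a whole, with 36 UMIs in all barcodes and a UMI in 3 plasmablasts, so that the selection rested on Xbp1. T cell genes other than Cd3, all 8 of which had a UMI in some plasmablast, summed to 255 to 624 CPM (counts scaled to a total of 1000000 UMIs, with immunoglobulin genes left out) in plasmablasts, against 6631 to 7592 in T cells and 177 to 311 in B cells. Monocyte markers (8 of 8 with a UMI) summed to 1031 to 1604 CPM in Con plasmablasts and 1184 to 2800 in T2D plasmablasts, beside 370 to 1080 in B cells and 1269 to 1889 in T cells. Most of the sum in plasmablasts was Ly6c2, at 875 to 1321 CPM in Con and 1001 to 2648 in T2D. Plasmacytoid dendritic cell markers (7 of 9 with a UMI) summed to 991 to 1896 CPM, beside 1836 to 1918 in B cells. Red cell markers (4 of 5 with a UMI) summed to 182 to 330 CPM in Con plasmablasts and 346 to 877 in T2D plasmablasts, without overlap, and to 129 to 1183 and 682 to 1857 in B cells of the same groups. The part of these lists in the results below was not tested. Cxcr2 of neutrophils, Alas2 of red cells, Ncr1 of NK cells and all 3 eosinophil markers were at 0. The threshold on Jchain cut a gap: no barcode with 2 to 5 Jchain UMIs met the other criteria, 2 did with 6, and the next had 11. The barcode at this edge with the weakest identity, in T2D 3, held 6 Jchain, 3 Xbp1 and 6 Ms4a1 UMIs and only 6.11% immunoglobulin UMIs. A second one at the edge, in T2D 2, held 814 UMIs and was IgG2c.

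Plasmablasts were rare in every library and most numerous in T2D 3. Con 1, Con 2 and Con 3 held 4, 6 and 6 plasmablasts, or 0.0528%, 0.0818% and 0.0739% of kept cells. T2D 1, T2D 2 and T2D 3 held 6, 12 and 22, or 0.0667%, 0.136% and 0.269%. T2D 1 lay inside the Con range and the other T2D libraries above it. The mean share was 0.0695% ± 0.0150 in Con and 0.157% ± 0.103 in T2D (SD, n = 3 libraries each), a ratio of 2.26 (two-sided exact permutation test, p = 0.3, where 3 against 3 libraries cannot go below 0.1). T2D 3 carried much of it: the T2D mean was 0.101% without that library, and the difference 0.0319 percentage points in place of 0.0877, whereas without T2D 1 the difference was 0.133 (exact permutation p = 0.4 and 0.1). Pooled over cells, the shares were 16 of 23029 in Con (0.0695%, exact binomial interval 0.0397% to 0.113%) and 40 of 25996 in T2D (0.154%, 0.110% to 0.209%). These intervals cover counting error only.

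B cells themselves made up 48.7% to 49.9% of kept cells in Con and 34.3% to 41.0% in T2D (exact permutation p = 0.1). As a share of B cells plus plasmablasts, plasmablasts were 0.108%, 0.163% and 0.151% in Con and 0.162%, 0.352% and 0.778% in T2D, a ratio of means of 3.06 (exact permutation p = 0.2). T2D 1 was again within the Con range. Without T2D 3 the difference of means was 0.116 percentage points in place of 0.290.

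The Cd3 gate removed many cells that otherwise looked like plasmablasts. Of 168 barcodes with at least 5 Jchain UMIs, 45 failed only that gate, 29 of them with a single Cd3 UMI, and their median depth of 14273 UMIs and median of 310 Jchain UMIs were close to those of the plasmablasts. Barcodes with 1 or 2 Cd3 UMIs numbered 2, 2 and 3 in Con and 9, 11 and 10 in T2D. Their T cell genes other than Cd3 summed to 111 to 496 CPM, far below T cells, while their monocyte genes, Ly6c2 included, reached 279 to 5799 CPM. Barcodes with at least 10 UMIs of Cd79a, Cd79b and Ms4a1 together were looked at for comparison. Of those with at least 8000 UMIs in all, 44 to 84 per library, 47.7% to 72.6% carried a Cd3 UMI. Of those under 4000 UMIs, 9.19% to 14.2% did. B cells of at least 8000 UMIs without a Cd3 UMI carried a UMI of Trac, Trbc1 or Trbc2 in 40.6% to 85.2%. Whether such deep barcodes hold 2 cells, and where the Cd3 UMIs of the left-out barcodes came from, was not tested. With up to 2 Cd3 UMIs allowed, an alternative chosen after seeing the data, plasmablasts numbered 6, 8 and 9 in Con and 15, 23 and 32 in T2D, or 0.0792% to 0.111% and 0.167% to 0.391% of kept cells. The groups then no longer overlapped (exact permutation p = 0.1, the smallest this design can give).

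**Figure D1:**
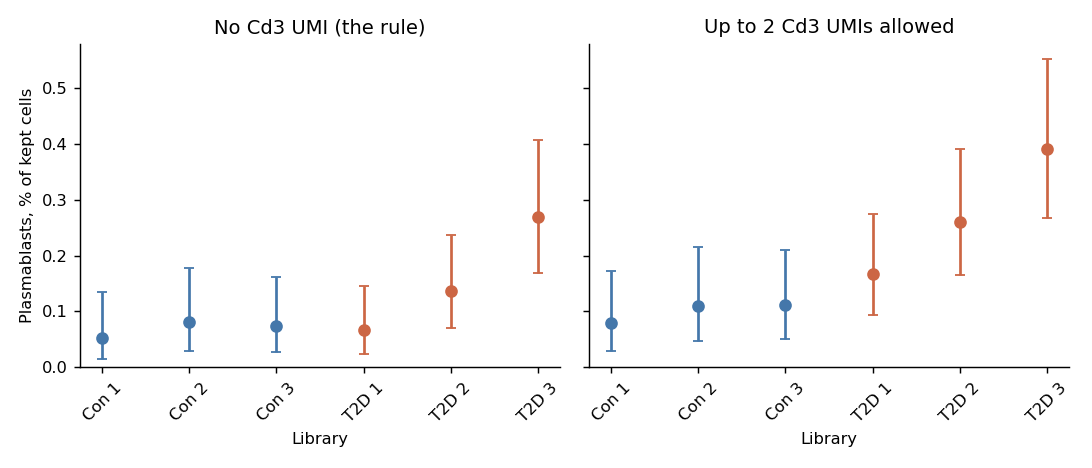
Plasmablasts as a percentage of kept cells in each library, with exact binomial intervals (bars), by the rule (left) and with up to 2 Cd3 UMIs allowed (right). By the rule T2D 1 at 0.0667% lies within the Con range, and with the wider gate the lowest T2D library (0.167%) lies above the highest Con library (0.111%).

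A further 47 barcodes failed only the Xbp1 criterion. Of these, 26 had under 2000 UMIs, and by the isotype rule below 36 of the 47 had an IgA, 6 an IgG and 3 an IgM heavy chain.

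The isotype of each plasmablast was read from its heavy chain constant genes, which the selection did not use: the gene with the most UMIs, at least 5 UMIs and at least 50% of all heavy chain constant UMIs. In 55 of 56 cells a gene met these criteria, and it held 94.3% or more of the heavy chain UMIs (median 99.6%). The remaining cell was the weak barcode of T2D 3. A further IgA call in T2D 3 rests on 5 heavy chain UMIs, the minimum, beside 834 of Igkc, and free Igha RNA was frequent in that library. The constant genes lie in a row on chromosome 12 (mm10): Igha at chr12:113254830-113260236, Ighg2c at chr12:113285325-113288932 and Ighg2b at chr12:113302965-113307933, all on the minus strand.

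IgA dominated the circulating plasmablasts, and IgG cells met the rule only in T2D libraries. All 16 Con plasmablasts were IgA (4 of 4, 6 of 6 and 6 of 6). In T2D, IgA accounted for 3 of 6, 8 of 12 and 19 of 22, and IgG for 3 of 6, 4 of 12 and 2 of 22. The IgG cells were 8 of IgG2c, found in all 3 T2D libraries, and 1 of IgG2b in T2D 2. No plasmablast was IgM, IgD, IgG1, IgG3 or IgE. The IgG share was 0%, 0% and 0% in Con and 50%, 33.3% and 9.09% in T2D, so the groups did not overlap (exact permutation p = 0.1, the smallest possible). Without T2D 1 the difference in IgG2c was 17.0 percentage points. For the 3 isotypes that occurred, the difference in IgG2c (28.0 percentage points) and in IgA (-32.3 percentage points) each had p = 0.1 by the exact permutation test, 0.15 after Benjamini-Hochberg adjustment, and IgG2b had p = 1. Few Con cells were available: 0 of 16 allows an IgG share of up to 18.75% (3 counts), and the exact binomial interval reaches 20.6%. With up to 2 Cd3 UMIs allowed, 2 of 9 plasmablasts in Con 3 were IgG2c, and the IgG share became 0%, 0% and 22.2% in Con against 46.7%, 21.7% and 12.5% in T2D, which overlap, and the difference in IgG2c was 11.2 percentage points (exact permutation p = 0.3). Pooled, it was then 2 of 23 cells in Con (8.70%, exact binomial interval 1.07% to 28.0%) and 16 of 70 in T2D (22.9%, 13.7% to 34.4%).

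**Figure D2:**
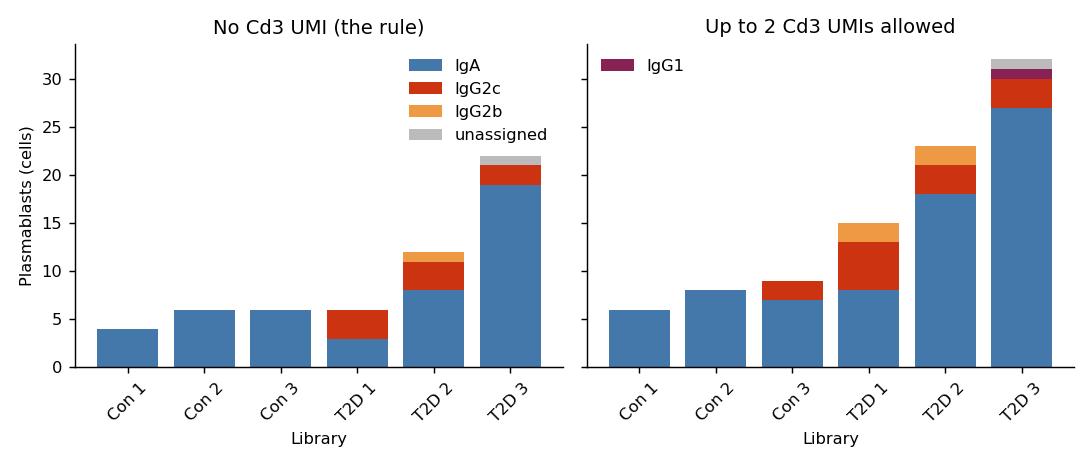
Number of plasmablasts of each isotype per library (stacked bars), by the rule (left) and with up to 2 Cd3 UMIs allowed (right). IgG appears by the rule in the 3 T2D libraries only, and with the wider gate also in Con 3 (2 of 9 cells).

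The UMIs of the constant genes gave the same picture per molecule. Igha took 11.6%, 10.7% and 12.1% of plasmablast UMIs in Con and 2.68%, 6.85% and 9.40% in T2D. All T2D libraries lay below all Con libraries. Ighg2c had 0 UMIs in each Con library and 3000, 2423 and 1027 in the T2D libraries. Against a floor of 3 counts over the Con group, its share of plasmablast UMIs was 797-fold higher in T2D. Nearly all these UMIs came from the 8 IgG2c cells, and UMIs of a cell are not independent. The ratio therefore describes the molecules counted and is no lower bound on the difference between groups. With the wider Cd3 gate Con 1 and Con 3 held 11 and 2944 Ighg2c UMIs, so that ratio applies only to the cells chosen by the rule. Ighm, the constant gene of the unswitched B cell receptor, took 0.0130% to 0.0551% of plasmablast UMIs and 0.649% to 0.733% of B cell UMIs. It had at most 36 UMIs in any isotype-assigned plasmablast.

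Light chains were called by the class with more constant gene UMIs, and nearly all were kappa. Lambda was called in 2 plasmablasts, both in T2D 2, 1 of them IgA and 1 IgG2c. That is 16.7% of the cells of that library and 0% elsewhere (exact permutation p = 1 between groups). An IgG2c cell of T2D 1 was called kappa with 3182 Igkc UMIs but also held 700 lambda constant gene UMIs. It also had 36 Ighm UMIs, the most of any isotype-assigned plasmablast. Whether this barcode holds 2 light chains or 2 cells was not tested.

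The V genes, which encode most of the antigen-binding site, were diverse. A heavy chain V gene could be called in 52 plasmablasts (at least 3 UMIs and 50% of V gene UMIs, with 4 to 338 UMIs) and 37 different genes were in use, 25 of them in a single cell. The Ighv1 family, the largest in the mouse, supplied 34 of the 52. The most frequent were Ighv1-76 with 3 cells, Ighv1-85 with 3, all in T2D 3, and Ighv9-3 with 3 in 3 libraries. Among 51 light chain calls there were 34 genes, led by Igkv1-110 and Igkv1-117 with 4 cells each, and by Igkv12-44 and Igkv6-23 with 3 each. Near-identical V genes share reads, so single calls are uncertain.

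Of 48 plasmablasts with both calls, 44 had a pair of V genes of their own. The exceptions were 2 pairs within a library. In Con 1, cells of 17410 and 1510 UMIs shared Ighv1-82 and Igkv2-109, and in T2D 3, cells of 5077 and 2097 UMIs shared Ighv1-85 and Igkv12-44. All 4 cells were IgA. Their barcodes differed at 21 and 22 of 27 positions, close to the median of 20 between plasmablasts of a library. No V gene pair was found in more than 1 library. The counts hold no junction sequence, so a shared V pair does not establish a shared clone.

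Each plasmablast spent a large part of its mRNA on antibody. Immunoglobulin genes made up a median of 31.2%, 35.3% and 45.1% of a cell's UMIs in Con and 27.6%, 30.6% and 33.4% in T2D (means of medians 37.2% ± 7.15 and 30.5% ± 2.90, SD, n = 3; exact permutation p = 0.2), against 2.62% to 2.96% in B cells. Single plasmablasts ranged from 6.11% to 67.3%. Median depth was 11734, 13716 and 9097 UMIs in Con and 14286, 12818 and 12642 in T2D (exact permutation p = 0.3). Both measures overlapped between groups.

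Mki67, a gene of dividing cells, was detected in 68% of plasmablasts (669 CPM against 8 in B cells), while most other cell cycle genes were sparse. Of 46 listed genes in the data, 4 were higher than in B cells in all 6 libraries, beside 5.30% of all 14138 genes compared. Only 8 of the 46 had a UMI in at least 25% of plasmablasts, and 19.5% of all genes so detected were higher in all 6. Top2a was detected in 21% of plasmablasts, Cdk1 in 11% and Ccnb1 in 7%, Bub1b had no UMI, and the replication genes Pcna (129 against 119 CPM) and Mcm4 (40 against 47) were close to the B cell level. Thinned to 2000 UMIs each, with 6 shallower cells left out, 2 of 3, 5 of 6 and 1 of 5 plasmablasts in Con and 2 of 5, 7 of 11 and 6 of 20 in T2D had a UMI of Mki67 or Top2a. The shares averaged 56.7% ± 32.8 in Con and 44.5% ± 17.3 in T2D (SD, n = 3; exact permutation p = 0.7), against 1.33% to 4% of 300 B cells sampled per library. Without thinning the means were 72.2% and 78.0%. In 7 plasmablasts the 2 genes together reached 10 UMIs or more, and the highest, an IgG2c cell of T2D 2, had 98. These 7 cells had 14.9% to 27.3% immunoglobulin UMIs (median 19.7%), and the 43 other plasmablasts of at least 2000 UMIs had a median of 36.2%. The medians of total UMIs were similar, 12578 and 12717. The 7 cells were chosen by their counts, so this is a description without a test.

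**Figure D3:**
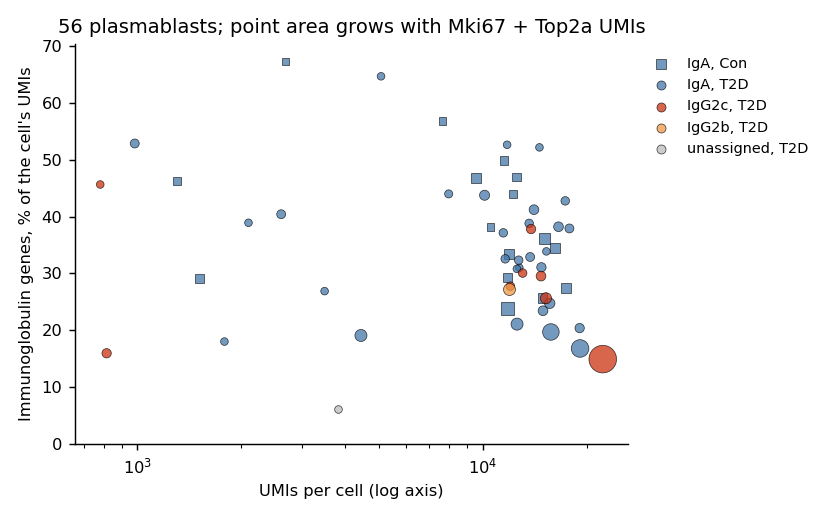
Immunoglobulin genes as a percentage of each plasmablast's UMIs (vertical axis) against its total UMIs (horizontal, log axis), coloured by isotype, with squares for Con and circles for T2D and point area growing with Mki67 and Top2a UMIs. The cell with 98 such UMIs is the deepest (22280 UMIs) and has 14.9% immunoglobulin UMIs.

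Compared with B cells, plasmablasts carried the plasma cell programme and lacked much of the B cell programme. This contrast is a description, because the cells were chosen by such genes, and it is given as CPM without immunoglobulin genes, on a log2 scale after adding 20 CPM. Among 3654 genes with a UMI in at least 25% of plasmablasts, 19.5% were higher than in B cells of the same library in all 6 libraries, as were 5.30% of all 14138 genes compared. In the plasma cell list, 17 of 25 genes were higher in all 6. Prdm1 was at 510, 836 and 587 CPM in Con plasmablasts and 473, 587 and 603 in T2D plasmablasts, and at 3.5 to 7.0 in B cells. Tnfrsf17, the survival receptor BCMA, was at 948, 1050 and 1028 CPM in Con and 437, 520 and 577 in T2D, and at 0.36 at most in B cells. The 15 genes with the largest ratios were, in order, Jchain, Tent5c, Derl3, Atp1b1, Tnfrsf17, Xbp1, Pycard, Hsp90b1, Prdm1, Anxa2, Mki67, Eaf2, Txndc5, Ly6c2 and Manf. Tent5c, a poly(A) polymerase that stabilises antibody mRNA, averaged 1573 CPM ± 359 in plasmablasts (SD, n = 6 libraries) and 10.7 in B cells. Irf4 was at 350 to 875 CPM against 84.7 to 123 in B cells. Not every gene of the list was high: Sdc1, which encodes the plasma cell surface marker CD138, was detected in 36% of plasmablasts (98 CPM), and Cd38 was at 31 CPM against 231 in B cells.

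**Figure D4:**
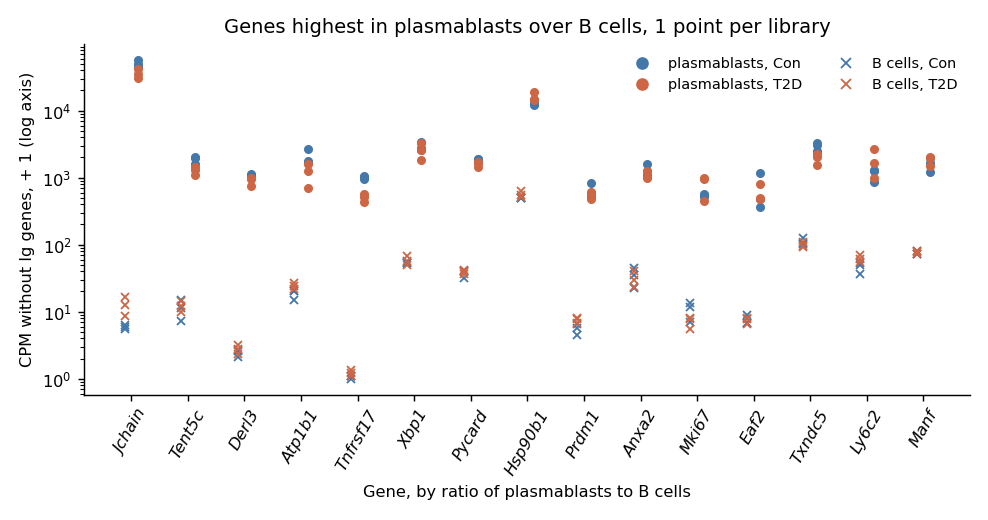
CPM (immunoglobulin genes left out, plus 1, log axis) of the 15 genes with the largest ratio of plasmablasts to B cells, with 1 point per library for plasmablasts (circles) and B cells (crosses). For each of these genes every plasmablast value lies above every B cell value.

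In the B cell list, 34 of 37 genes were lower than in B cells in all 6 libraries, beside 35.1% of the 14138 genes compared. Pax5, which maintains B cell identity and represses Xbp1, averaged 47.8 CPM against 1008 in B cells, and Ms4a1, which encodes CD20, 81.7 against 1601. The antigen-presentation genes Cd74 and H2-Aa were reduced less completely, at 3890 against 14241 CPM and 678 against 6496. The signalling subunit Cd79b (816 against 1081 CPM) and the adaptor Blnk (315 against 287) were close to the B cell level.

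The endoplasmic reticulum list holds chaperones, disulfide isomerases and degradation factors of the unfolded protein response. Of its genes, 28 of 32 in the data were higher in plasmablasts than in B cells in all 6 libraries. Hsp90b1 (the chaperone GRP94) was at 12283, 13942 and 12443 CPM in Con and 18783, 14346 and 14962 in T2D, against 491 to 631 in B cells. Hspa5 (BiP), which binds unassembled heavy chains, was at 4775, 8206 and 8185 CPM in Con and 6625, 10447 and 9156 in T2D, against 659 to 730. Ddit3, which encodes the death-associated factor CHOP, was not raised, at 15 CPM against 18, and Trib3 had no UMI. XBP1 and ATF6 act on such genes through the endoplasmic reticulum stress element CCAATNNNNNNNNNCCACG. This motif, searched on both strands in the 250 bases before the gene start, occurred in 10 of 30 listed genes with a promoter in the RefSeq table (33.3%) and in 37 of 32851 promoters of that table (0.113%). A match is a description of letters and not a site of binding. The list was drawn up from genes of this response, so its share describes the list and is no result on these cells. The genes with a match were Calr, Canx, Creld2, Derl3, Dnajc3, Ero1b, Hsp90b1, Hspa5, Pdia6 and Syvn1. The promoters of the 5 with a match and a log2 ratio over B cells above 3.2 are shown because they carry the motif (capitals, on either strand) before genes that were high in these cells. They are from RefSeq, build GRCm38.p6, written 5′ to 3′ on the gene's strand.
Hspa5, chr2:34771840-34772089, plus strand: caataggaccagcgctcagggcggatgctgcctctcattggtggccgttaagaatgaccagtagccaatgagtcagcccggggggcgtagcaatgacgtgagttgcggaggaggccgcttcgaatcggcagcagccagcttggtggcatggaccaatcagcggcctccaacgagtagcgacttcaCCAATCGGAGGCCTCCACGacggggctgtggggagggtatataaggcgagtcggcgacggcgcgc
Hsp90b1, chr10:86705445-86705694, minus strand: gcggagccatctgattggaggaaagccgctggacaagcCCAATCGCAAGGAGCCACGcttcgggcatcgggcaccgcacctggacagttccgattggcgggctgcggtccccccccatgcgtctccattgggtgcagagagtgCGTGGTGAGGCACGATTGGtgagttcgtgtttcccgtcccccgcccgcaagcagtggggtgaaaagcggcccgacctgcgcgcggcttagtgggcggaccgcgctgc
Derl3, chr10:75893148-75893397, plus strand: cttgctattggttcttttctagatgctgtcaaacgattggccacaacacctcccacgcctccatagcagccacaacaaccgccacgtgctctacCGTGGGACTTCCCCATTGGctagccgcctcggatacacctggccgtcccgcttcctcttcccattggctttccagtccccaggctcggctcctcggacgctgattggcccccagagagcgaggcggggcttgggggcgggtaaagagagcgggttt
Creld2, chr15:88819396-88819645, plus strand: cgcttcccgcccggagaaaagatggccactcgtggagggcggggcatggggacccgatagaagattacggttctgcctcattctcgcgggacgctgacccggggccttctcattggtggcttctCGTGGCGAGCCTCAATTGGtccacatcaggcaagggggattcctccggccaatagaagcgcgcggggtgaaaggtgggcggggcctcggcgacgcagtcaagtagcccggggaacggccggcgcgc
Pdia6, chr12:17266339-17266588, plus strand: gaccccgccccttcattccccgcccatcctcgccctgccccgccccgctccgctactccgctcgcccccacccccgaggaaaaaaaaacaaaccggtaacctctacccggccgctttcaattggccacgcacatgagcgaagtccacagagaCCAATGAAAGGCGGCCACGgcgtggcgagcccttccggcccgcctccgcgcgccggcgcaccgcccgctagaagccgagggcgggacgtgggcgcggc

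Each shown promoter carries 1 match except that of Hsp90b1, which carries 2. Hspa5 has its match 65 bases before the gene start, and Derl3, an exit factor for misfolded proteins, has it at 156. Log2 ratios of plasmablasts to B cells for these genes were 5.54 for Derl3, 4.71 for Hsp90b1, 3.77 for Creld2, 3.42 for Hspa5 and 3.24 for Pdia6.

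The secretory pathway list, of translocon, signal peptidase, glycosylation and vesicle coat genes, was higher in all 6 libraries for 33 of 38 genes. Sec61b, a translocon subunit, was at 1138 CPM against 87 in B cells. Lman1, the cargo receptor that carries glycoproteins to the Golgi, was at 1001 against 40.

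Homing genes went in both directions. Ccr7, a chemokine receptor that directs cells to lymph nodes, was at 38 CPM against 476 in B cells, and Cxcr4 at 115 against 833. Itga4 and Itgb7, the subunits of the gut-homing integrin, were detected in 91% and 84% of plasmablasts and averaged 1991 and 860 CPM, against 632 and 162 in B cells. Itgam, an integrin better known from myeloid cells, was at 847 CPM against 28 and was detected in 70% of plasmablasts, including 13 of 16 in Con. Ccr9, the receptor for the small intestine chemokine CCL25, had 1, 1 and 0 UMIs in Con and 19, 29 and 7 in T2D, but a single cell held 25 of the 29. Ccr10, for other mucosal sites, had 1, 1 and 6 in Con and 2, 12 and 16 in T2D. It was detected in 39% of plasmablasts, in 5 of 16 Con cells, 14 of 30 IgA cells of T2D and 3 of 9 IgG cells.

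Within T2D, the IgA and IgG plasmablasts could be set side by side, as a description over few cells. Itgb1, the beta 1 integrin that pairs with Itga4 as the receptor VLA-4, had a UMI in 18 of 30 IgA cells (190 UMIs, 823 CPM, exact Poisson interval 710 to 949) and in 2 of 9 IgG cells (5 UMIs, 65.1 CPM, 21.1 to 152). In Con, where all cells were IgA, it was in 5 of 16 (27 UMIs, 255 CPM, 168 to 370). Cxcr3, which guides cells to sites of interferon-gamma responses, had a UMI in 5 of 9 IgG cells (22 UMIs, 286 CPM, 179 to 433) and in 6 of 30 IgA cells of T2D (13 UMIs, 56.3 CPM, 29.99 to 96.3). Of the IgG UMIs of Cxcr3, 13 came from T2D 1 and 9 from T2D 2. In Con, Cxcr3 was in 3 of 16 cells (10 UMIs, 94.3 CPM, 45.2 to 173), and 1 cell held 8 of these UMIs. Ccr9 did not follow the gut-homing isotype: it was at 234 CPM in IgG cells (139 to 370, 3 of 9 cells) and 160 in IgA cells of T2D (113 to 221, 4 of 30), with most UMIs of each in 1 cell. These intervals cover counting error only, and cells of a library are not independent replicates, so no test was made.

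Summed per library, plasmablasts of T2D and Con were compared for 1029 genes with edgeR's quasi-likelihood test. No gene passed a Benjamini-Hochberg adjusted p of 0.05 (0.00% called), while 63 genes (6.12%) had an unadjusted p under 0.05 and DESeq2 called 1, Ighg2c. The group sums rested on 4 to 22 cells per library and 42388 to 230947 UMIs. On simulated counts of these libraries, 200 genes were changed 4-fold and 122 of them were tested. Of these, 117 were recovered, and 9 unchanged genes were called falsely. The simulation gave every gene the same spread between libraries, so it cannot show that changes of this size in the real, more variable genes would be called. Since none was called, values are given for the 6 genes of smallest p, in CPM scaled by edgeR's TMM factors. Groups did not overlap for 64 genes higher in T2D (6.22%) and for 72 lower (7.00%), and each of the 6 is among these.

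Pdia3, a disulfide isomerase that folds glycoproteins, was at 736, 633 and 805 CPM in Con and 1804, 1506 and 1262 in T2D, a log2 difference of 1.08 ± 0.24 (SE) with an adjusted p of 0.268 (edgeR). It was shown because it had the smallest p, so the gap between its groups is no support beyond that p. In IgA plasmablasts alone, 46 of the same 56 cells, the log2 difference was 1.09 (edgeR adjusted p = 0.125). Tnfrsf17 was at 798, 924 and 867 CPM in Con and 370, 449 and 494 in T2D (log2 difference -0.96 ± 0.26, adjusted p = 0.525). Plek, a protein kinase C substrate of blood cells, was at 1074, 924 and 557 in Con and 324, 341 and 471 in T2D. Pitpnc1, a lipid transfer protein, was at 215, 257 and 248 in Con and 108, 41.6 and 39.3 in T2D, from 5 to 15 UMIs per library. Hnrnpa2b1, an RNA-binding protein, was at 399, 445 and 650 in Con and 1033, 1065 and 796 in T2D. Larp1b was at 368, 240 and 217 in Con and 15.4, 99.8 and 95.3 in T2D. The edgeR adjusted p of the last 4 lay between 0.508 and 0.568. With up to 2 Cd3 UMIs allowed, the log2 differences shrank to 0.62 for Pdia3, -0.35 for Plek, -0.56 for Tnfrsf17 and -1.24 for Pitpnc1 (edgeR adjusted p 0.233 to 0.679).

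**Figure D5:**
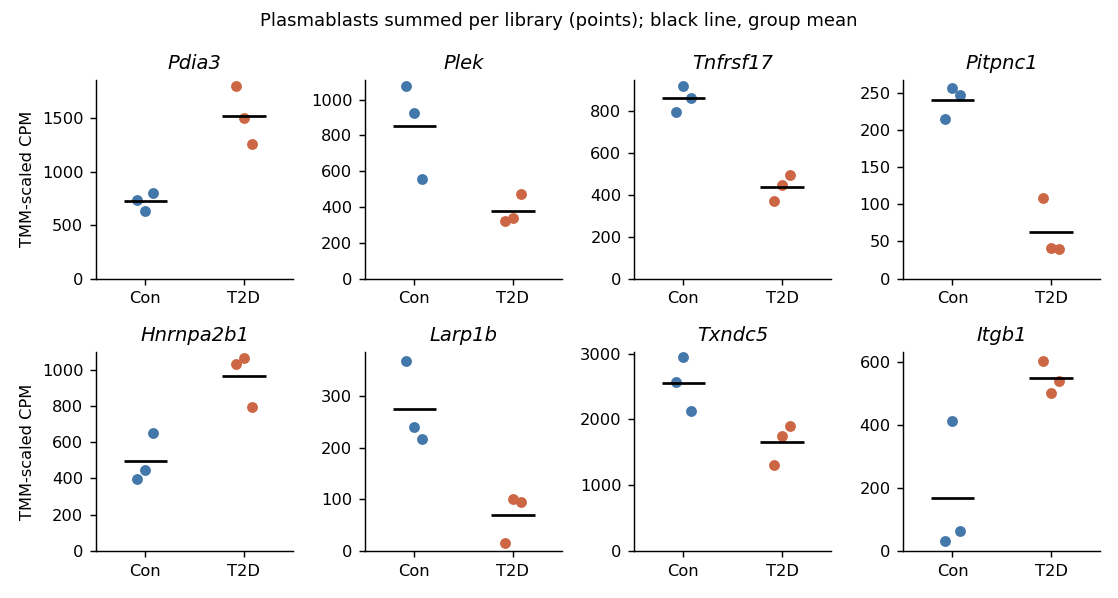
TMM-scaled CPM of 8 genes in plasmablasts summed per library (points), with the group mean (line): the 6 genes of smallest p, then Txndc5 and Itgb1 as list members whose groups do not overlap. No gene shown passed the adjusted threshold by the edgeR test.

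The lists were described by their counts beside those over all genes tested, whose median log2 difference was -0.003. Of all 1029 genes tested, 6.22% lay higher in T2D without overlap and 7.00% lower. Of the 25 plasma cell genes, 16 were tested, none passed, 5 lay lower in T2D without overlap (among them Jchain, a gene of the rule) and 1 higher, and the median was -0.24. Txndc5, a disulfide isomerase abundant in plasma cells, was at 2577, 2944 and 2136 CPM in Con and 1311, 1755 and 1896 in T2D (adjusted p = 0.757, edgeR). Of the 34 endoplasmic reticulum genes, 27 were tested, none passed, 6 lay higher without overlap and 3 lower, with a median of 0.16. Of 38 secretory pathway genes, 33 were tested and none passed (1 higher and 1 lower without overlap, median 0.13). Of 34 homing genes, 15 were tested and none passed, and 4 lay higher without overlap, namely Itgb1, Itgb2, Klf2 and Lgals1 (median 0.21). Itgb1 was at 30.7, 411 and 61.9 CPM in Con and 601, 499 and 538 in T2D, a log2 difference of 1.41 ± 0.51 (SE; edgeR adjusted p = 0.757). It passed when genes with low counts were also tested (10825 genes, 10 called) or when Con 2, its highest Con library, was left out.

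Of 37 B cell genes 11 were tested, of 47 cell cycle genes 4, of 27 survival and nutrient genes 8, and of 26 isotype and class switch genes only Runx2, and none passed. Runx2, which lay lower in T2D without overlap, had 10, 13 and 9 UMIs in Con and 13, 8 and 24 in the larger T2D samples. A last list held 46 immediate early and interferon genes that an earlier account of these libraries reports as changed in other blood cells. In plasmablasts 13 were tested and none passed. Fos and Klf2 lay higher in T2D without overlap (2 of 13, beside 6.22% of all genes tested), and the median was -0.23.

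The difference between groups in plasmablasts was also set against that in B cells of the same libraries, by an interaction term with the library as a block. Of 10591 genes, 9 passed (0.0850%, edgeR adjusted p under 0.05), and 7 of them were immunoglobulin genes. In B cells alone, 105 of 11588 genes passed (0.906%). Igha had a difference of -1.42 ± 0.19 (log2, SE; adjusted p = 5.7e-10), from a plasmablast value that was lower in T2D and a B cell value of 0.00323% to 0.00517% of UMIs in Con and 0.00295%, 0.00819% and 0.00979% in T2D. Those B cell values moved with the free Igha RNA seen in T cells above, and their part in the difference was not tested. In IgA plasmablasts alone the T2D against Con log2 difference of Igha was -0.49 (edgeR adjusted p = 0.900). Jchain is counted among the 9, but as a gene of the rule its value is no test. Ighg2c passed through its absence from the Con plasmablasts. Of the V genes, Igkv6-32 and Igkv12-41 were used by 2 T2D plasmablasts each and Igkv6-23 by 3, with no UMI in Con, and Igkv10-96 and Ighv1-26 by 2 Con plasmablasts each, with no UMI in T2D. Each such call thus rests on 2 or 3 cells. Tnfaip3, the inhibitor A20 of NF-kB signalling, had a difference of -2.48 ± 0.51 (adjusted p = 0.00236), but 48 of its 55 Con UMIs were in Con 2 and 41 of those in a single cell. Without Con 2 its difference was -0.64 with an adjusted p of 0.967 (edgeR).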

How the data were processed

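Per the labels' protocols, blood mononuclear cells were isolated over Ficoll and red cells lysed, and 3′ whole-transcriptome libraries were made with BD Rhapsody. CASAVA 1.8, UMI-tools, Seurat and mm10 are listed in the submitters' processing notes, and for aligner, annotation and strand setting the sources used here give nothing. The authors deposited raw UMI counts per gene and barcode, 1 matrix per library. Libraries were distinct (chi-square per degree of freedom of gene totals at least 10.8). Doublets were scored with scrublet in scanpy 1.11.5 (Python 3.11.15, scipy 1.17.1), cutting at 0.279 (median over libraries). Counts were summed per library for plasmablasts and B cells and fitted with edgeR 4.0.16 in R 4.3.3 (robust quasi-likelihood, TMM, filterByExpr, Benjamini-Hochberg), with DESeq2 1.42.0 as an alternative and a test on simulated data first. Single values were compared by exact permutation over libraries. Lists were named by their highest and lowest members, those past the threshold, the 6 genes of smallest p where fewer than 6 passed, up to 10 interaction genes, and the 15 largest ratios to B cells detected in 25% of plasmablasts. The members and lists were chosen with earlier results of these data known. Coordinates are from GENCODE M21 on GRCm38. Some listed genes are not reported here.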

Additional observations from a re-analysis of the deposited data

Results flagged for a closer look

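In 8 genes, leaving out Jchain as a gene of the rule, the T2D effect in plasmablasts differed from that in B cells of the same libraries by the edgeR interaction test. The adjusted p values were 5.69e-10 for Igha, 2.9e-07 for Igkv6-32, 2.22e-06 for Igkv10-96, 0.000136 for Ighv1-26, 0.000136 for Igkv6-23, 0.00236 for Tnfaip3, 0.00519 for Igkv12-41 and 0.0287 for Ighg2c. Of these, the 5 V genes and Ighg2c had no UMI in the plasmablasts of 1 group and rest on few cells of the other (2 or 3 for each V gene), and nothing is read from their p values. Igha was called in 9 of the 9 alternatives that tested it, Ighg2c in 4 of 9 and Igkv12-41 in 4 of 9.

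Barcodes with Jchain and Xbp1 that the rule leaves out for 1 or 2 Cd3 UMIs were more numerous in T2D, with 30 barcodes against 7 in Con. Plasmablast markers summed to 97795 to 139281 CPM in those of T2D and 114349 to 202546 CPM in those of Con. That list holds Jchain and Xbp1, by which these barcodes were chosen, so the sum describes the selection. It also counts Igha, although the scaling total left immunoglobulin genes out. Of the 30, 23 were IgA and 7 IgG, and of the 7 in Con, 5 were IgA and 2 IgG. Adding them brought Top2a from 2, 0 and 2 UMIs in Con and 2, 45 and 14 in T2D to 2, 0 and 3 in Con and 57, 61 and 57 in T2D. Lyz2, a monocyte gene, went from 8, 19 and 17 UMIs in T2D to 43, 278 and 89. Their part in the shares was not tested.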

How the results depend on the processing

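The direction of the share of plasmablasts held under all 16 alternatives, with differences of 0.0319 to 0.204 percentage points of kept cells and 0.116 to 0.615 of B-lineage cells, and exact permutation p between 0.1 and 0.5. With 3 against 3 libraries none could fall below 0.1. The differences in IgA, IgG2c and any IgG kept their direction in 14 of 14 alternatives. Most of these could not reverse it, because all Con plasmablasts of the rule were IgA. Only pooled heavy chain UMIs (99.5%) and the wider Cd3 gate (92.6%) moved the Con mean of IgA from 100%. With up to 2 Cd3 UMIs allowed, the difference in IgG2c shrank from 28.0 to 11.2 percentage points and in any IgG from 30.8 to 19.6. That in IgA went from -32.3 to -20.6 (exact permutation p = 0.3 for each with this gate). Without T2D 2 the differences in IgG2b and in lambda calls were 0, because the only cells so called came from it. These differences ranged from 0 to 4.17 and from 0 to 8.33 percentage points over the left-out libraries. The difference in the share of plasmablasts with a Mki67 or Top2a UMI was -12.1 percentage points. It turned to 5.81 without thinning and 0.152 when 3 UMIs of the cell cycle list were asked for instead. With up to 2 Cd3 UMIs allowed it was 2.74, and without Con 2 it was 1.21. When single libraries were left out it ranged from -30.5 to 1.21.

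No gene differed between groups in plasmablasts in the edgeR fit, and 9 of 16 alternatives also called none. The exceptions were 10 genes without a filter on low counts (Pdia3, Itgb1, Ccr9, Hbb-bs and Iglv1 higher; Tnfaip3, Igkv6-13, Ighv3-8, Ighv1-26 and Ighv1-59 lower), 1 with up to 2 Cd3 UMIs allowed (Top2a, log2 difference 3.19, edgeR adjusted p = 0.0265), 1 by DESeq2 and 1 with the replicate block (both Ighg2c). Leaving out single libraries called 0 to 2 genes: 2 without Con 2 (Igkv4-55 and Itgb1), 1 without T2D 2 (Igkv12-41) and 2 without T2D 3 (Ighg2c and Iglc1). The 6 genes of smallest p kept their direction in all alternatives, with log2 differences of 0.62 to 1.32 for Pdia3, -1.33 to -0.35 for Plek, -1.02 to -0.56 for Tnfrsf17, -2.53 to -1.24 for Pitpnc1, 0.73 to 1.21 for Hnrnpa2b1 and -1.97 to -1.26 for Larp1b. The 9 interaction genes became 2 without immunoglobulin genes, 39 with up to 2 Cd3 UMIs allowed, among them cell cycle genes (Mki67, Top2a) and myeloid genes (Lyz2, Tyrobp), and 8 to 15 when single libraries were left out, 15 of them without Con 2.

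Libraries of the same number deviated together only weakly (r = 0.091, 0.070 and 0.053 across genes), under the level taken to show pairing, although each Con library correlated best with the T2D library of its number. Exact sign-flip p with the replicate block was 0.25 for the shares of plasmablasts. The number of cells limits the IgG share in Con, where only 16 were available.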
